A study of Volvox carteri with 4 samples.

Results

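The 8 genes described here encode enzymes around acetyl-CoA in the multicellular green alga *Volvox carteri*. These genes serve the breakdown of fatty acids to acetyl-CoA, the glyoxylate cycle that takes it up or, for *ACS2*, the activation of free acetate. They are listed by locus, without a threshold on expression, but were picked with earlier results of these libraries known, so their shared direction is a description of chosen genes. They make up 8 of the 16008 gene models counted. They are the acyl-CoA oxidase genes *ACX1* (Vocar.0023s0122), *ACX2* (Vocar.0003s0447), *ACX3* (Vocar.0011s0091) and *ACX4* (Vocar.0012s0263), the enoyl-CoA hydratase and 3-hydroxyacyl-CoA dehydrogenase gene *ECH1* (Vocar.0012s0264), the isocitrate lyase gene *ICL1* (Vocar.0002s0037), the malate synthase gene *MAS1* (Vocar.0014s0003) and the acetyl-CoA synthetase gene *ACS2* (Vocar.0001s0439). All 8 passed the filter on low counts.

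A *V. carteri* spheroid is built of small flagellated somatic cells, which do not divide again, and large reproductive cells called gonidia. Somatic and gonidial cells of strain Eve were separated from hatched adult spheroids at hour 42 of the 48 hr life cycle, 6 hr after the second light period began and before the gonidia cleave. Poly(A) RNA of 2 somatic and 2 gonidial preparations was sequenced, each preparation pooling spheroids of several flasks and each made from its own culture. All 4 libraries come from this 1 strain, stage and light condition, untreated, so that cell-type is the only difference the labels give. The cell-types were isolated differently, with a loose pestle and slower spins for gonidia and a tight pestle and faster spins for somatic cells. Effects of isolation and of cell-type therefore cannot be told apart.

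In beta-oxidation a fatty acid, activated to its coenzyme A ester, is shortened by repeated rounds that each release acetyl-CoA. In algae such as *Chlamydomonas reinhardtii* and in land plants these rounds run in peroxisomes, where acyl-CoA oxidase makes the opening step and passes electrons to oxygen. The tricarboxylic acid (TCA) cycle burns acetyl-CoA to carbon dioxide. Isocitrate lyase and malate synthase form a shortcut across it that keeps the carbon, and the loop closed by this shortcut is called the glyoxylate cycle.

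Of the 8 genes, 6 were higher in somatic cells, by 3.13-fold (*ECH1*) to 23.4-fold (*ICL1*), and 2 (*ACX1* and *ACS2*) were higher in gonidia, by 2.33-fold and 2.36-fold. The genes of the steps that belong to the glyoxylate cycle alone, *ICL1* and *MAS1*, differed most. Calls rest on the quasi-likelihood test of edgeR, with p-values adjusted over 13350 tested genes by the Benjamini-Hochberg method. A called gene has an adjusted p under 0.05 and differs at least 2-fold. Genes called with more than 5-fold are named somatic-specific or gonidial-specific, and the others somatic-biased or gonidial-biased. The same rule called 26.0% of all tested genes somatic and 46.7% gonidial. It put 5 of the 8 in the somatic-specific class, which held 16.9% of all tested genes. It put 1 in the somatic-biased class, which held 1221 of the 13350, and 2 in the gonidial-biased class, which held 17.6%. In all 8 genes the ranges of normalized counts in somatic cells and gonidia were separate, with the somatic libraries above in 6 and the gonidial libraries above in 2, but this was so in 90.6% of all tested genes, with somatic libraries above in 33.4% and gonidial libraries above in 57.2%. The median log2 fold change of the 8 was 2.58, beside -0.85 over all tested genes.

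Normalized counts are counts divided by the size of their library relative to the mean of the 4 libraries. They are not divided by gene length, so they compare a gene between cell-types and not one gene with another. Because each library holds RNA of many cells, fewer cells carrying a transcript and less of it per cell cannot be told apart. The values are also shares of a library, and RNA per cell was not measured. Gonidia are much larger than somatic cells, so a lower value in gonidia need not mean fewer copies per cell. With 2 libraries per cell-type, an exact two-sided permutation test of a single gene cannot go below p = 0.333, and the adjusted p-values given here borrow the spread from all tested genes.

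**Figure D1:**
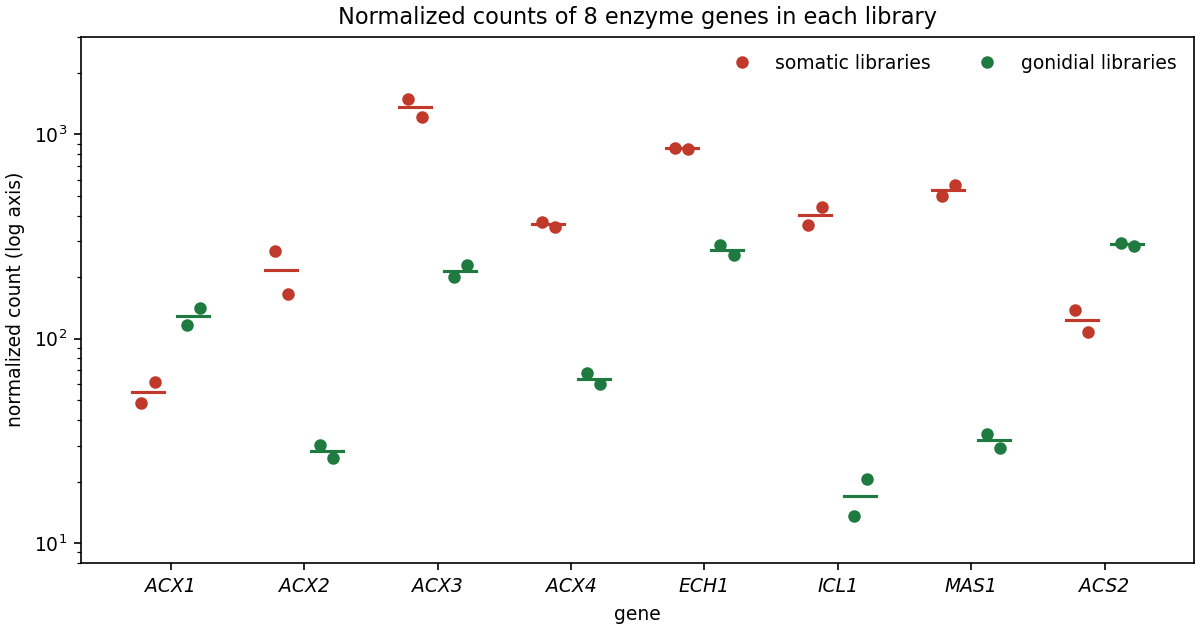
Normalized counts of the 8 genes on a log axis, with a point per library and a line at the mean of each cell-type. The somatic points lie above the gonidial points for *ACX2*, *ACX3*, *ACX4*, *ECH1*, *ICL1* and *MAS1*, and below them for *ACX1* and *ACS2*; heights of different genes are not comparable because lengths were not divided out.

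The libraries held 10838222 and 13104583 counts in somatic cells and 11583555 and 11650101 counts in gonidia. As a check of the labels, *regA*, the master regulator that keeps somatic cells from becoming reproductive, had 486 and 786 counts in the somatic libraries and 1 and 0 counts in the gonidial libraries. Of 83 genes of the flagellar axoneme, 81 were called somatic (97.6%, beside 26.0% of all tested genes). The median log2 fold change of the 83 was 6.58, beside -0.85 over all tested genes. The summed normalized count of the 83 was 323316 and 347884 in somatic cells and 15277 and 15221 in gonidia. In gonidia the median gene stood at 1.13% and 0.957% of its somatic mean, and 0 and 1 of the 83 genes were at 0. Of these 83 genes, 2 were constitutive (*PGH1*, enolase, and *PP2A*, a phosphatase, named after their values were seen), and they held 54.3% and 55.6% of the summed gonidial level. Of 19 genes known from gonidial cDNA clones, 9 were called gonidial (47.4%, near the 46.7% of all tested genes) and 2 somatic, with a median log2 fold change of -0.94 beside -0.85, so this list does not check the gonidial labels. Its summed level in the somatic libraries was 56.3% and 43.4% of that in gonidia.

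Acyl-CoA oxidases catalyse the step that commits an acyl-CoA to a round of beta-oxidation. *ACX3* had 1386 and 1443 counts in somatic cells and 192 and 212 counts in gonidia. Its normalized count averaged 1353 ± 192 in somatic cells and 215 ± 21.5 in gonidia (SD, n = 2 each), a log2 fold change of 2.65 (SE 0.25, edgeR adjusted p = 7.59e-09) and a somatic-specific call. Both somatic libraries lay far above both gonidial libraries, and the spread within each cell-type was small beside the distance.

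*ACX2* had 249 and 195 counts in somatic cells and 29 and 24 counts in gonidia. The normalized counts were 268 and 164 in somatic cells and 30.2 and 26.0 in gonidia, and the somatic libraries lay farther apart, in proportion to their mean, than for any of the other 7 genes. The log2 fold change was 2.93 (SE 0.34, edgeR adjusted p = 1.53e-07), and it stayed between 2.54 and 3.24 when any 1 library was left out. *ACX4*, the third somatic-specific oxidase gene, had 348 and 415 counts in somatic cells and 65 and 55 counts in gonidia. Its replicates lay close together, with means of 362 ± 16.9 normalized counts in somatic cells and 63.6 ± 5.60 in gonidia (SD, n = 2 each) and a log2 fold change of 2.50 (SE 0.27, edgeR adjusted p = 7.08e-08).

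*ACX1* went the other way. It had 45 and 73 counts in somatic cells and 112 and 130 counts in gonidia. Its normalized count averaged 55.0 ± 9.34 in somatic cells and 129 ± 17.4 in gonidia (SD, n = 2 each), which gave a log2 fold change of -1.22 (95% interval -1.84 to -0.59, edgeR adjusted p = 0.000991) and a gonidial-biased call. This value lay only 0.37 below the median of all tested genes, at percentile 44.4 of their fold changes. When the libraries were scaled by TMM, the trimmed mean of edgeR, it was -0.63 (edgeR adjusted p = 0.0412), and under DESeq2's size factors it was -0.52 (edgeR adjusted p = 0.0966), in both cases under 2-fold, so the direction held and the call did not. The symbol *ACX1* is also used for a subunit of acetyl-CoA carboxylase (Vocar.0006s0374), which is a different gene.

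Because all counts of a library share its depth, the make-up of the oxidase counts does not depend on how the libraries are scaled. *ACX1* gave 2.22% (95% Wilson interval 1.66 to 2.96) and 3.43% (2.74 to 4.30) of the counts on the 4 oxidase genes in the somatic libraries, and 28.1% (23.9 to 32.8) and 30.9% (26.7 to 35.4) in the gonidial libraries. These intervals take each count as independent, which PCR copies of a molecule are not. They also leave out variation between preparations, so they may be too narrow. The share of *ACX3* was 68.3% and 67.9% in somatic cells and 48.2% and 50.4% in gonidia. The share of *ACX2* was 12.3% and 9.17% in somatic cells and 7.29% and 5.70% in gonidia, and that of *ACX4* was 17.2% and 19.5% in somatic cells and 16.3% and 13.1% in gonidia. The 4 shares add up to the whole, so a larger share of 1 gene lowers the others. All 4 genes together had 2179 and 1793 normalized counts in somatic cells and 414 and 457 in gonidia.

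**Figure D2:**
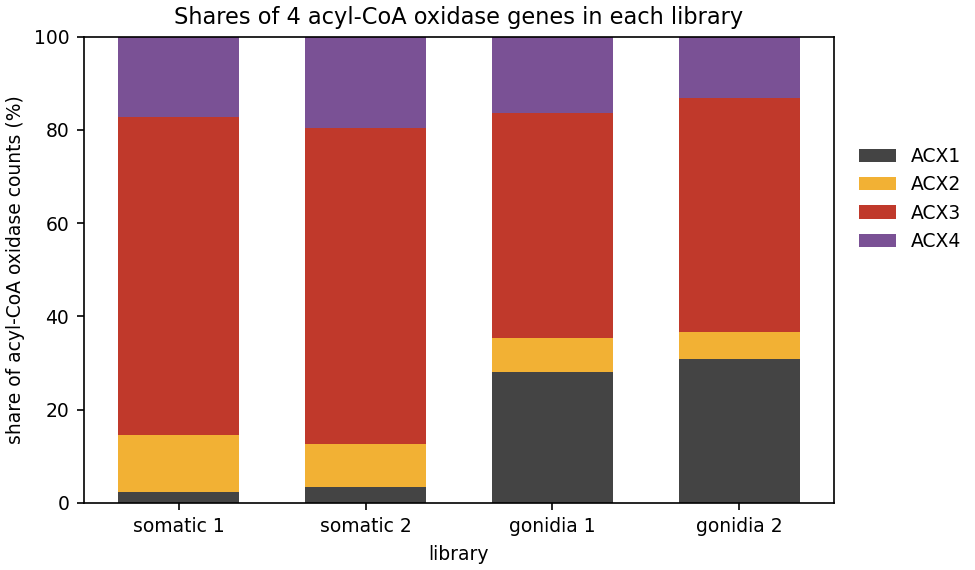
Share of each acyl-CoA oxidase gene, in percent, of the counts on all 4 oxidase genes in each library, not divided by gene length. *ACX1* takes 2.22% and 3.43% of the somatic bars and 28.1% and 30.9% of the gonidial bars, whereas *ACX3* takes 68.3% and 67.9% of the somatic bars and 48.2% and 50.4% of the gonidial bars.

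The ratio of 2 genes within a library likewise needs no library size, and a gene's length drops out when the ratio is compared between cell-types. On the log2 scale, *ACX3* over *ACX1* was 4.94 and 4.30 in somatic cells and 0.78 and 0.71 in gonidia, a difference of 3.88. *ACX2* over *ACX1* was 2.47 and 1.42 in somatic cells and -1.95 and -2.43 in gonidia, a difference of 4.13. *ACX4* over *ACX1* was 2.95 and 2.51 in somatic cells and -0.78 and -1.24 in gonidia, a difference of 3.74. Each of these differences exceeded the spread between replicates, and *ACX1* thus stood apart from the other 3 oxidase genes under any scaling.

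*ECH1* encodes the multifunctional protein that hydrates the enoyl-CoA left by the oxidase and oxidizes the product. It had 800 and 1005 counts in somatic cells and 277 and 237 counts in gonidia. The means were 854 ± 8.46 normalized counts in somatic cells and 273 ± 21.9 in gonidia (SD, n = 2 each), a log2 fold change of 1.65 (SE 0.24, edgeR adjusted p = 2.93e-06). The gene was called somatic-biased, and with DESeq2's size factors its log2 fold change of 2.36 passed the 5-fold limit. *ECH1* and *ACX4* carry consecutive locus numbers. Within a library, *ACX4* over *ECH1* was -1.20 and -1.28 in somatic cells and -2.09 and -2.11 in gonidia on the log2 scale. The difference of 0.86, or 1.81-fold, compares with an SD of 0.05, so it was larger than the spread between replicates. The sources used here do not say that strand was used in counting, nor whether the 2 gene models overlap, and reads of overlapping models could not be told apart without strand.

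The remaining beta-oxidation genes on the study's pathway list, *CTS*, *LCS3* and *ATO1*, surround these steps, and all 3 were somatic-biased. Of all 13350 tested genes, 26.0% were called somatic and 1221 were somatic-biased. The median log2 fold change of the 3 was 1.28. *CTS*, the transporter that brings long-chain acyl-CoA into the peroxisome, had 469 and 634 counts in somatic cells and 239 and 183 counts in gonidia, a log2 fold change of 1.22 (SE 0.24, edgeR adjusted p = 0.000147). *LCS3*, a long-chain acyl-CoA synthetase that activates the fatty acid, had 614 and 732 counts in somatic cells and 292 and 206 in gonidia, a log2 fold change of 1.28 (SE 0.25, edgeR adjusted p = 0.000101). *ATO1*, the thiolase that releases acetyl-CoA at the end of each round, had 2125 and 2896 counts in somatic cells and 921 and 837 in gonidia, a log2 fold change of 1.34 (SE 0.21, edgeR adjusted p = 1.16e-05). Entry, activation and thiolysis genes were thus called in the same direction as *ACX2*, *ACX3*, *ACX4* and *ECH1*. With edgeR's glmTreat, which tests against a 2-fold change, 1 of these 3 calls remained. This list and the others below are the study's pathway lists and were taken up with earlier results known, so their directions are not independent evidence.

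Isocitrate lyase splits isocitrate into succinate and glyoxylate, and its gene is needed by *C. reinhardtii* for growth on acetate in the dark. *ICL1* had 336 and 523 counts in somatic cells and only 13 (95% Poisson interval 6.92 to 22.2) and 19 (11.4 to 29.7) counts in gonidia. The normalized count averaged 401 ± 56.6 in somatic cells and 17.1 ± 5.02 in gonidia (SD, n = 2 each). The log2 fold change of 4.55 (95% interval 3.85 to 5.25, edgeR adjusted p = 2.46e-10) was the highest of the 8 genes and lay at percentile 91.7 of all tested genes.

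Malate synthase joins the glyoxylate to a further acetyl-CoA and closes the bypass. *MAS1* had 465 and 673 counts in somatic cells and 33 and 27 counts in gonidia. The normalized count averaged 534 ± 48.1 in somatic cells and 31.8 ± 3.55 in gonidia (SD, n = 2 each), a log2 fold change of 4.06 (95% interval 3.45 to 4.67, edgeR adjusted p = 1.98e-10) at percentile 90.3. Both dedicated genes of the cycle were thus somatic-specific, with gonidial counts well above the limit of 3 counts that a count of 0 allows.

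The gonidial level of *ICL1* was 3.37% and 5.14% of its somatic mean, and that of *MAS1* was 6.43% and 5.49%. In the same gonidial libraries the median axoneme gene stood at 1.13% and 0.957% of its somatic mean, and the summed level of the 81 axoneme genes called somatic at 2.12% and 2.06%. The sum over all 83 was 4.55% and 4.54%, with the shares of *PGH1* and *PP2A* given above. The part of RNA from other cells in the gonidial counts of *ICL1* and *MAS1* was not tested. For the other somatic genes the gonidial level was a larger part of the somatic mean, from 12.1% (*ACX2*) to 18.7% (*ACX4*) for the 3 oxidase genes and 33.7% and 30.1% for *ECH1*.

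The log2 ratio of *ICL1* over *MAS1* was -0.47 and -0.36 in somatic cells and -1.34 and -0.50 in gonidia. The difference between the means was 0.50. The SD of 0.59 given with it is the spread of a difference between single libraries, not between means. Without gonidial replicate 1 the difference was 0.09, so with 2 libraries per cell-type a difference between these 2 genes in their change was not settled.

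The other 4 genes of the glyoxylate cycle list had a median log2 fold change of -0.38, which turned to 0.22 under TMM and 0.34 under DESeq2's size factors. Of these 4 genes, 25.0% were called somatic, near the 26.0% of all tested genes, and 0.0% gonidial, beside 46.7%. The only called gene was *ACS3*, an acetyl-CoA synthetase gene. It had 326 and 223 counts in somatic cells and 91 and 68 counts in gonidia and was somatic-biased (log2 fold change 1.67, SE 0.31, edgeR adjusted p = 7.14e-05).

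The other 3 were constitutive, meaning that they changed less than 2-fold. The citrate synthase gene *CIS2*, whose product makes the citrate that enters the cycle, had 502 and 666 counts in somatic cells and 599 and 566 in gonidia, a log2 fold change of -0.17 that became 0.43 under TMM and 0.54 under DESeq2's size factors. The aconitase gene *ACH1*, which also serves the TCA cycle, had 2631 and 3411 counts in somatic cells and 4472 and 3623 in gonidia, with -0.59, or 0.014 and 0.13 under those scalings. The malate dehydrogenase gene *MDH2* had 105 and 179 counts in somatic cells and 246 and 198 in gonidia and a log2 fold change of -0.83 (SE 0.27, edgeR adjusted p = 0.00818), and without somatic replicate 2 it was -1.06 and called gonidial-biased. The values of these 3 genes lay far from those of *ICL1* and *MAS1*.

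Acetate that is free in the cell must be activated before it can enter the cycle, and acetyl-CoA synthetase does so in 1 step. *ACS2* had 129 and 128 counts in somatic cells and 284 and 263 counts in gonidia. Its normalized count averaged 123 ± 21.7 in somatic cells and 290.3 ± 7.06 in gonidia (SD, n = 2 each), a log2 fold change of -1.24 (95% interval -1.79 to -0.69, edgeR adjusted p = 0.000240) and a gonidial-biased call. Like *ACX1*, it lay close to the median of all tested genes, 0.39 below it. The log2 fold change was -0.64 under TMM (edgeR adjusted p = 0.0205) and -0.52 under DESeq2's size factors (edgeR adjusted p = 0.0519), both under 2-fold. The part of gonidial RNA in the somatic counts of *ACX1* and *ACS2* was not tested. The genes of the gonidial clones, at 56.3% and 43.4% of their gonidial sum in the somatic libraries, do not measure it. Of these 19 genes, 8 were constitutive and 2 were called somatic.

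The acetyl-CoA synthetase genes differed among themselves. *ACS3* over *ACS2* was 1.34 and 0.80 in somatic cells and -1.64 and -1.95 in gonidia on the log2 scale, a difference of 2.86 with an SD of 0.44. The remaining paralog, *ACS1*, had 46 and 82 counts in somatic cells and 43 and 43 in gonidia and was constitutive (log2 fold change 0.38, SE 0.33, edgeR adjusted p = 0.295), although it was called somatic-biased with DESeq2's size factors. The acetate kinase gene *ACK2*, which belongs to a different route of acetate activation, had 424 and 540 counts in somatic cells and 203 and 161 in gonidia. It was somatic-biased, with a log2 fold change of 1.24 (SE 0.24, edgeR adjusted p = 0.000123).

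**Figure D3:**
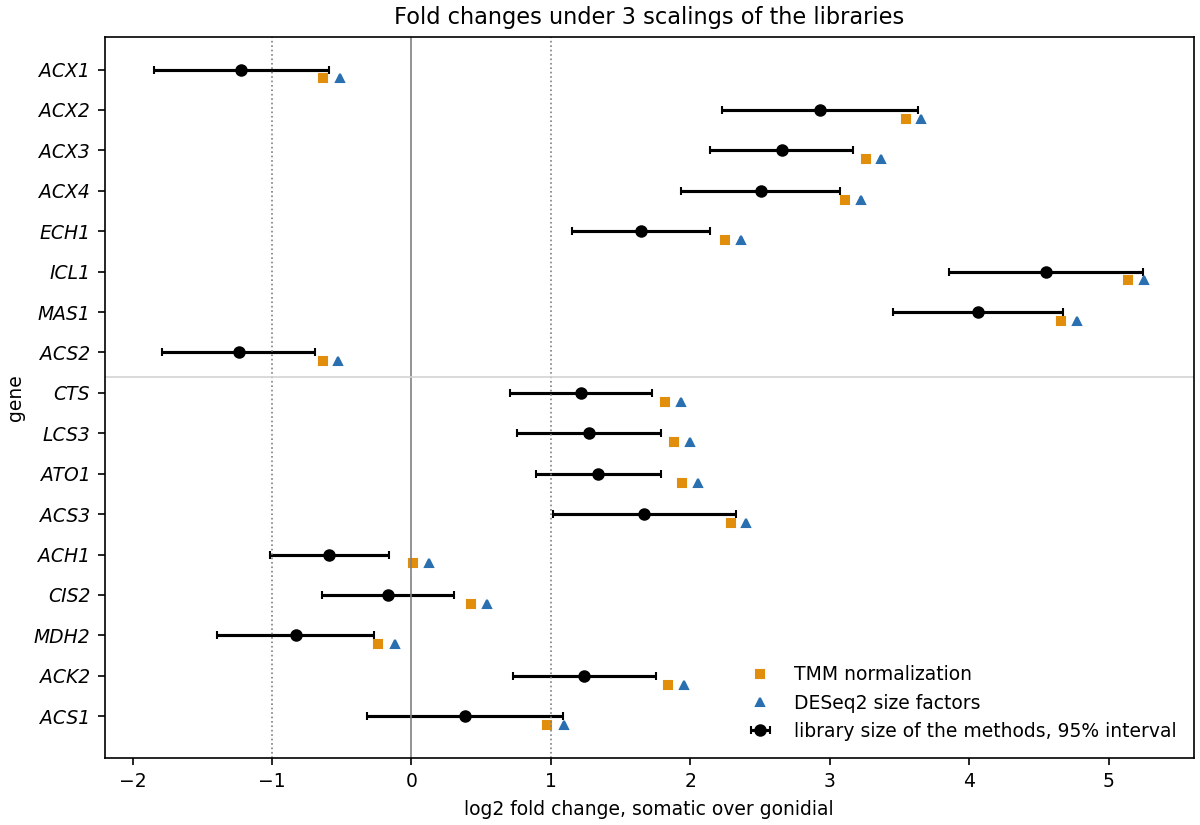
Log2 fold changes, somatic over gonidial, of the 8 genes (above the grey line) and of the other beta-oxidation, glyoxylate cycle and acetate activation genes (below it), with 95% intervals for the library sizes of the methods and separate marks for TMM and for DESeq2's size factors. Dotted lines mark a 2-fold change; *ACX1* and *ACS2* move inside them under both other scalings, *ACH1* and *CIS2* change sign, and *ICL1* and *MAS1* stay above 3 on this scale.

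Another scaling of the libraries moved the values of all genes together. Over all tested genes, the log2 fold change had a median of -0.85 under the library sizes of the methods, -0.24 under TMM and -0.12 under DESeq2's size factors, shifts of 0.61 and 0.73. Calls over all tested genes were 3471 somatic and 6233 gonidial, against 4314 and 5031 under TMM (32.3% and 37.7%) and 4520 and 4793 under DESeq2's size factors (33.9% and 35.9%). Relative to the median of all genes, the log2 fold changes were 5.40 for *ICL1*, 4.91 for *MAS1*, 3.78 for *ACX2*, 3.51 for *ACX3*, 3.36 for *ACX4*, 2.50 for *ECH1*, -0.37 for *ACX1* and -0.39 for *ACS2*. The 6 somatic genes were called under all 13 alternatives run, those that left out a library included.

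**Figure D4:**
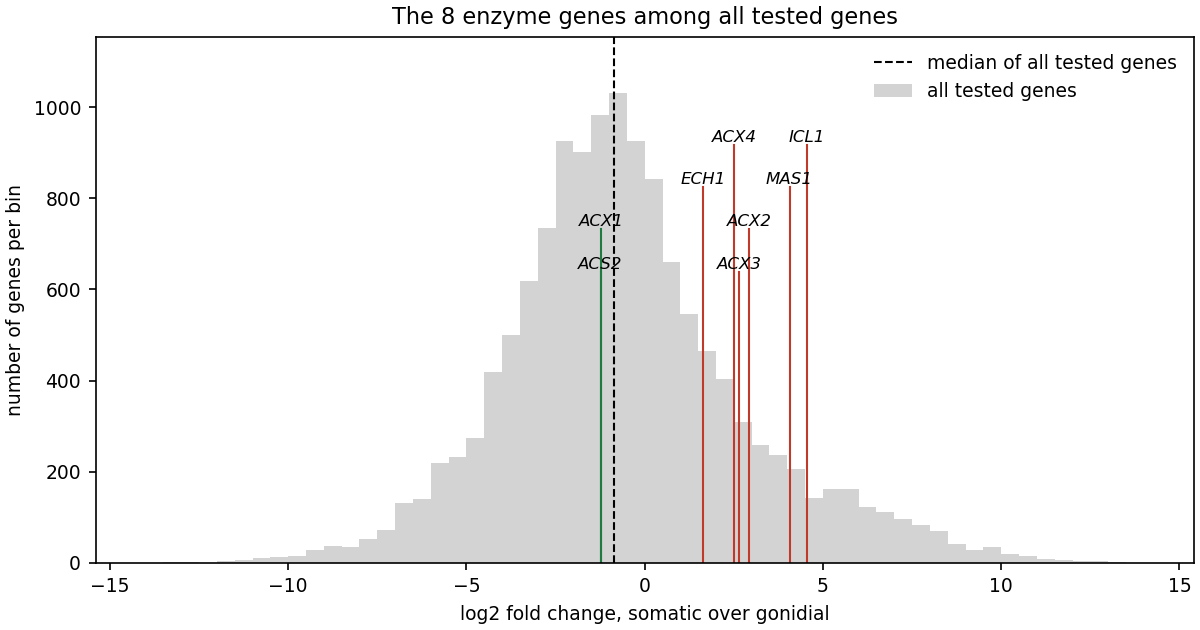
Number of tested genes in each bin of log2 fold change, somatic over gonidial (grey), with the median of all tested genes at -0.85 (dashed) and the 8 genes marked by lines whose heights only make room for the names. *ICL1* and *MAS1* lie in the right tail, *ACX2*, *ACX3*, *ACX4* and *ECH1* on the right shoulder, and *ACX1* and *ACS2* next to the median.

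The pathways on either side of these enzymes were compared by the same calls. The TCA cycle list held 21 tested genes, of which 1 was called somatic (the succinate dehydrogenase subunit gene *SDH2*, log2 fold change 1.17) and 9 gonidial. These 9 were 42.9%, beside 46.7% of all tested genes, and the median of -0.91 lay near their -0.85, so the list as a whole did not stand apart. Under TMM and DESeq2's size factors 6 were called gonidial, with medians of -0.31 and -0.20. Isocitrate is where the cycles part, since isocitrate dehydrogenase competes with isocitrate lyase for it. *IDH3*, which encodes the NADP-dependent enzyme, had the lowest value of the list at -6.92, with 5 and 7 counts in somatic cells and 755 and 564 counts in gonidia. *IDH1*, the regulatory subunit gene of the NAD-dependent enzyme, had 22 and 39 counts in somatic cells and 383 and 328 counts in gonidia (-3.72). *IDH2*, the catalytic subunit gene, had 381 and 794 counts in somatic cells and 2219 and 1905 counts in gonidia (-2.02). The log2 count of *ICL1* minus the mean log2 count of these 3 genes was 3.26 and 3.11 in somatic cells and -6.04 and -5.21 in gonidia. The difference of 8.81, or 449.9-fold, had an SD of 0.60. It gives *IDH3*, with its few somatic counts, the same weight as the others, and against the mean of the 3 counts the log2 ratio was 1.30 and 0.90 in somatic cells and -6.42 and -5.61 in gonidia, a difference of 7.12, or 139-fold.

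The citrate synthase genes also differed from each other, since *CIS1* was called gonidial-specific and *CIS2* was constitutive. *CIS1*, on the TCA cycle list, had 98 and 222 counts in somatic cells and 1266 and 1053 counts in gonidia, a log2 fold change of -3.06. The log2 ratio of *CIS2*, on the glyoxylate cycle list, over *CIS1* was 2.36 and 1.58 in somatic cells and -1.08 and -0.90 in gonidia. This was a difference of 2.96 with an SD of 0.56, beside which the log2 fold change of *CIS2* alone was -0.17.

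Fatty acid synthesis, the opposite of beta-oxidation, had 18 of 19 listed genes tested. Of these, 16 (88.9%) were called gonidial, beside 46.7% of all tested genes, and the other 2 were constitutive. The median log2 fold change of the 18 was -2.86, beside -0.85 over all tested genes. The values went from -3.81 for the biotin carboxylase gene *BCR1* to -0.39 for *ACC1*, a homomeric acetyl-CoA carboxylase gene whose sign turned under TMM (0.21) and DESeq2's size factors (0.33). The ketoacyl synthase genes *KAS1*, *KAS2* and *KAS3*, which extend the fatty acid chain, had log2 fold changes between -3.80 for *KAS3* and -2.98 for *KAS2*. The mean log2 count of the 4 oxidase genes minus that of these 3 genes was -1.002 and -1.68 in somatic cells and -6.42 and -6.23 in gonidia. The difference was 4.99, or 31.7-fold, with an SD of 0.49 and with *ACX1* included, and it was 5.26, or 38.4-fold, between means of counts.

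Gluconeogenesis, which would take up the malate and oxaloacetate that the glyoxylate cycle yields, was represented by 4 genes. Of these, 2 were called somatic and 2 gonidial (50.0% each), beside 26.0% and 46.7% of all tested genes. The phosphoenolpyruvate carboxykinase gene *PCK2* had 286 and 551 counts in somatic cells and 6 and 6 counts in gonidia, a log2 fold change of 5.90 (SE 0.39), and the paralog *PCK3* had 4 and 1 counts in somatic cells and 60 and 51 in gonidia. The fructose-1,6-bisphosphatase gene *FBP1*, named after its values were seen, had 4386 and 6487 counts in somatic cells and 138 and 140 in gonidia, a log2 fold change of 5.11 (SE 0.25). *PCK1*, also named after its values were seen, was called gonidial-biased on only 4 and 3 counts in somatic cells and 11 and 15 in gonidia.

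**Figure D5:**
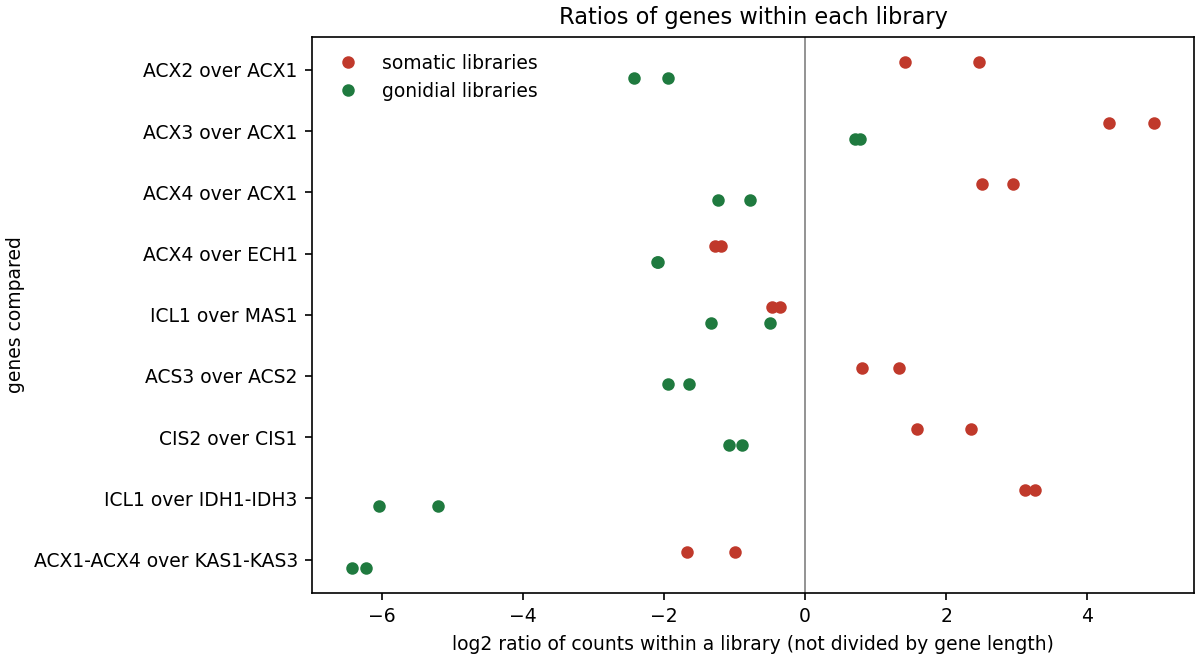
Log2 ratios of counts of the genes named on the left, within each library (means of log2 counts where several genes are named), with somatic points above gonidial points in each row. In all 9 rows both somatic points lie to the right of both gonidial points; the distance is smallest for *ICL1* over *MAS1* (0.50) and largest for *ICL1* over *IDH1* to *IDH3* (8.81).

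In all 9 ratios the somatic libraries lay above the gonidial libraries, and no sign changed with 0.5 or 1 count added in place of 0.1 or with any 1 library left out. The 9 pairs were not drawn at random, since most set a somatic gene over a gonidial or constitutive one.

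For each of the 8 genes the most similar named gene was sought among 461 candidates, by the distance between log2 normalized counts centred on each gene's own mean over the 4 libraries. Cell-type dominates such a distance, which rests on only 4 points. The candidates include the axoneme genes, nearly all of them somatic. *FAP169/DRC6* (1866 and 2511 counts in somatic cells, 70 and 89 in gonidia) was closest to *ICL1* at 0.218, *ODA8* to *MAS1* at 0.110 and *BUG4* to *ACX4* at 0.0684. *DIP13* (2106 and 2189 counts in somatic cells, 294 and 289 in gonidia) was closest to both *ACX3*, at 0.139, and *ACX2*, at 0.362. For *ECH1* the closest was *UGD1* (0.139) and for *ACS2* it was *UXE1* (0.113), both genes of nucleotide sugar metabolism, and for *ACX1* it was the starch synthesis gene *STA6* (0.0956). Between 2 (*ACX4*) and 26 (*ECH1*) tested genes with at least 100 normalized counts, the named one included, lay within that distance, so none of these likenesses is exclusive.

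The genes with the next lower and higher locus numbers were also examined, leaving out *ACX4* and *ECH1*, which neighbour each other. Of 14 such neighbours 12 were tested, and 3 were called somatic and 8 gonidial, which compares with 26.0% and 46.7% of all tested genes.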

How the data were processed

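RNA was measured in 2 somatic and 2 gonidial libraries by single-end sequencing of poly(A) RNA. The authors trimmed reads with Trimmomatic, aligned what remained to the version 2 genome assembly with STAR and assigned uniquely mapped reads to a merged set of gene models with HTSeq. The deposited values are raw read counts per gene model, whole numbers without normalization or pooling. Reads shared by near-identical paralogs are therefore missing from them.

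From these counts, library sizes were taken as the totals left after removing the upper 0.3% quantile of counts (45 genes and 25.6% to 34.9% of counts per library). Genes without counts were dropped, followed by the 10% with the lowest mean normalized count. Cell-type was tested with edgeR 4.0.16 (quasi-likelihood, Benjamini-Hochberg, R 4.3.3), in place of DESeq2, which the methods name and which was run as an alternative (1.42.0). Standard errors are the log2 fold change over the square root of F. A count of 0 allows 3 counts, or 2.53 to 3.25 normalized counts here, for counting error only. Ratios within a library add 0.1 to each count. The SD given with a difference of ratios is the square root of the summed squares of the SDs of the 2 cell-types. It describes a difference between single libraries, not between means. Tables and figures were made with Python 3.11.15, matplotlib 3.10.9, pandas 2.3.3, numpy 2.4.6 and scipy 1.17.1.

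Libraries were grouped by the cell-type in the labels. Replicate numbers were not taken as pairs, since each preparation had its own culture. Replicates differed by more than sampling noise (chi-square per gene 40.1 in somatic cells and 12.9 in gonidia). On simulated data with 13350 genes, edgeR recovered 88 of 100 genes changed by 1.5 and 100 of 100 changed by 3 on the log2 scale, with 3 false calls among 13150 unchanged genes. The changed genes were few, as many up as down and not among the lowest counts, and the true library sizes were supplied. In the real data 72.7% of tested genes were called, mostly gonidial, so the simulation cannot speak to errors from the choice of scaling.

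The 8 genes and the pathway and marker lists, which follow the study's pathway assignments, were chosen with earlier results of these data known. Named are the 8 genes, all genes of the 3 shorter lists, the extremes of the longer lists, the genes of the ratios, and for each of the 8 the named gene with the closest pattern among those averaging at least 100 normalized counts. Alternatives were plain totals, size factors of DESeq2, TMM scaling, edgeR's glmTreat, DESeq2's Wald test, 3 other filters, the replicate number as a term, each library left out in turn and, added after seeing the data, means of counts in the ratios of several genes. Sequences, gene lengths and coordinates of these gene models were not used here.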

Additional observations from a re-analysis of the deposited data

How the results depend on the processing

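The direction of all 8 genes held under all 13 alternatives, and 98 of 104 values kept their call. The 6 exceptions were *ACX1* (-0.63 under TMM scaling, -0.52 under DESeq2's size factors, and an unchanged -1.22 that failed edgeR's glmTreat test against 2-fold at adjusted p = 0.132) and *ACS2* (-0.64, -0.52, and -1.24 at adjusted p = 0.0991), so that the gonidial calls among the 8 were 0 under each of these 3 settings, with 2, 1 and 0 at an unadjusted p under 0.05. The DESeq2 Wald test called both. With each library left out in turn, log2 fold changes ranged from -1.41 to -1.06 for *ACX1*, 2.54 to 3.24 for *ACX2*, 2.50 to 2.79 for *ACX3*, 2.42 to 2.60 for *ACX4*, 1.57 to 1.73 for *ECH1*, 4.27 to 4.88 for *ICL1*, 3.95 to 4.18 for *MAS1* and -1.43 to -1.07 for *ACS2*. A fit with 1 library of a cell-type assumes that it varies like the other cell-type.

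Requiring at least 10 counts in every library left 2271 somatic and 3479 gonidial calls over all genes, and 1 somatic and 0 gonidial calls among the gluconeogenesis genes, of which 1 was then tested. glmTreat left 1 somatic call among the other beta-oxidation genes and 0 among the acetate activation and TCA cycle genes (also 0 at an unadjusted p under 0.05), where the DESeq2 Wald test called 1 each. With DESeq2's size factors the last 2 lists had 2 somatic calls each and gluconeogenesis 1 gonidial call, as with the DESeq2 Wald test. With each library left out, gonidial calls were 0 to 1 among the other glyoxylate cycle genes and 1 to 2 in gluconeogenesis. The sign turned for *ACH1* (0.014 under TMM, 0.13 under DESeq2's size factors), *CIS2* (0.43 and 0.54) and *ACC1* (0.21 and 0.33). Of the 9 ratios none changed sign, but *ICL1* over *MAS1* ranged from 0.09 to 0.92 with each library left out. Against the mean of counts, an alternative added after seeing the data, *ICL1* over *IDH1* to *IDH3* fell to 7.12 and the oxidase genes over *KAS1* to *KAS3* came to 5.26.

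With the replicate number as a block, 3449 genes were called somatic and 6215 gonidial, and 6 and 2 among the 8 genes (*ACX1* -1.23, *ACS2* -1.25). Deviations of same-numbered libraries from their cell-type means correlated at -0.04, and with 2 pairs the numbers cannot be shown to pair the libraries. Depth limits *ICL1* and *MAS1* in gonidia, where they had between 13 and 33 counts, and *ACX1* in somatic cells with 45 and 73.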
